A study of Sus scrofa with 44 samples.

Results

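Oxidative phosphorylation was followed through 41 named genes of the respiratory chain and ATP synthase: 13 encoded by mitochondrial DNA and 28 encoded in the nucleus. The genes were taken by name, using the current or older symbol of each Ensembl pig gene ID, and not by any measured value. Of the 41, 39 were found among the 22427 genes of the deposited expression tables, namely all 13 mitochondrial genes and 26 of the nuclear ones; COX6C and ATP5F1B matched no gene ID and were not analysed here. All 39 had a mean level of 1 TPM or more across the 18 muscle input libraries and so passed the filter on low values. TPM, a transcript measure, divides a gene's reads by its length and sets every library to the same total.

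The study profiled N6-methyladenosine, m6A, a methyl mark on adenosines of RNA, in pig skeletal muscle before birth. Muscle (longissimus dorsi, the long back muscle) came from fetuses at 33, 40, 50, 60, 70 and 95 days after conception, written here E33 to E95. Each stage had 3 input libraries, made from RNA before enrichment, and 3 libraries of RNA pulled down with an antibody against m6A, all after depletion of ribosomal RNA. PK15, an established pig kidney cell line, supplied 2 further sets, 1 from polyA-selected and 1 from rRNA-depleted RNA, each of 2 input and 2 pulled-down libraries. No group carried a treatment or a modified gene. The labels give neither breed nor sex, and do not say whether the 3 libraries of a stage came from separate fetuses, so p-values measure the spread between these libraries, which may be technical.

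Respiratory chain complexes I, III and IV pump protons across the inner mitochondrial membrane while passing electrons to oxygen, complex II feeds in electrons without pumping, and complex V uses the proton gradient to make ATP. Complexes I, III, IV and V are mosaics of subunits made from mitochondrial and nuclear genes, while complex II is wholly nuclear. The mitochondrial genes are read from both strands of a small circular genome as long transcripts, which are then cut into shorter messages.

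Reading depth is not known, because the expression tables hold TPM only. An unnamed gene, ENSSSCG00000032395, took 37.4 to 72.4% of all TPM in a library. The E40 replicate 2 and E50 replicate 3 libraries stood apart, with 17.3% and 14.4% of TPM in another unnamed gene, ENSSSCG00000032599. Because such genes push all other TPM values up or down together, each library was divided by a median-ratio factor, which ran from 0.305 to 2.01. Levels below are scaled TPM unless they are said to be as deposited. The choice matters: the median log2 difference of all tested genes between E95 and E33 was 0.00 after scaling and -1.02 as deposited. The markers of skeletal muscle were present in all 18 libraries: 11 of 12 were found, TTN was not matched, and their summed deposited level ran from 3416 to 21006 TPM.

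RNA of the 13 mitochondrial genes was abundant at every stage and more so later. Their summed scaled TPM was 41496, 33022 and 20882 for E33, 52130.3, 37739 and 46336 for E40, 42956, 73242 and 49832 for E50, 37986, 48248 and 36457 for E60, 74104, 84594 and 89349 for E70 and 113405, 123944 and 105890.0 for E95. After scaling, the 3 libraries of E70 lay above all 12 libraries of E33 to E60, the 3 of E95 lay above those of E70, and the first 4 stages overlapped one another except E33 with E50. Ordered by mean, the stages ran E33 with 31800.2 ± 10361, E60 with 40897 ± 6412, E40 with 45402 ± 7241, E50 with 55343 ± 15878, E70 with 82682 ± 7800.0 and E95 with 114413 ± 9069 (SD, n = 3 each). As deposited the mean sums were 51760 ± 13625 TPM for E33, 53691 ± 31245 for E40, 49361 ± 38742 for E50 and 52330 ± 9763 for E60. They were 83986 ± 10920 TPM for E70 and 79394 ± 11037 TPM for E95 (SD over 3 libraries). The E95 mean was thus below that of E70. E50 replicate 2, at 91464 TPM as deposited, lay above E70 replicates 1 and 3, at 71620.5 and 88032. Without the 2 genes of highest mean TPM, the same 2 in every library, the 13 genes made up 9.96, 13.6, 14.6, 11.6, 20.2 and 22.8% of TPM on average from E33 to E95. In bulk tissue a change in the number of cells of a type and a change in RNA per cell cannot be told apart.

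The tests on the members were E95 against E33, the 5 consecutive pairs of stages, and an F test over all 6 stages, each fitted across 13334 genes with limma and adjusted by the Benjamini-Hochberg method. Over the 6 stages, 11 of 13 mitochondrial members (all but ND4 and ND5) and 25 of 26 nuclear members (all but COX8A) passed the F test, against 47.5% of all tested genes. As deposited, 2 mitochondrial members (ND1 and ND4L) and 1 nuclear member (COX7A1) passed, against 20.1% of all tested genes.

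At E95, 12 of 13 mitochondrial members were higher than at E33, with a median log2 difference of 1.88 over the 13, where 22.8% of all tested genes were called higher. ND4 was not called, at 0.92 with an adjusted p of 0.0929. With the deposited values, 2 of 13 were called higher, ND1 and ND4L, where 2.64% of all genes were; the median over the 13 was 0.62 and 12 differences were above 0. The E95 libraries lay above all 3 E33 libraries for 12 members after scaling, as they did for 27.2% of all tested genes.

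The 3 members of highest mean TPM were ATP8, ATP6 and COX3. ATP8 (ENSSSCG00000018080, chrMT:8959-9162), a small subunit of ATP synthase, had scaled TPM of 5418, 4159.7 and 3179.5 for E33, 6552, 5388 and 8279 for E40, 8546, 11122 and 8305 for E50, 7405, 6548 and 4946 for E60, 15798, 15039 and 13862 for E70 and 25027, 23234 and 23579 for E95. The E70 and E95 libraries were the 6 highest, and the E95 libraries did not overlap those of E70. ATP8 rose 5.76-fold from E33 to E95 (log2 2.53 ± 0.21 SE, limma adjusted p = 2.08e-07). The difference was 1.27 as deposited, with an adjusted p of 0.0526, just outside the threshold.

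ATP6 (ENSSSCG00000018081, chrMT:9120-9800), the membrane subunit of ATP synthase that forms its proton path, had scaled TPM of 5846, 5074 and 3476 for E33, 8660.1, 5205 and 7158 for E40, 6743, 10974 and 7624 for E50, 6079.9, 8636 and 6009.8 for E60, 9637, 9837 and 10969 for E70 and 12748, 13593 and 12203 for E95. The 3 E95 libraries were the highest of all 18, and E50 replicate 2 came next, above every library of E60 and E70. ATP6 rose 2.74-fold from E33 to E95 (log2 1.45 ± 0.24 SE, limma adjusted p = 1.51e-04); as deposited the difference was 0.19 and the stages overlapped, and quantile normalization turned it to -0.47.

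COX3 (ENSSSCG00000018082, chrMT:9800-10583), a core subunit of cytochrome c oxidase, had scaled TPM of 5363, 4397 and 3220.0 for E33, 8453, 5383 and 6547 for E40, 5579.6, 7599 and 7236 for E50, 4777, 5836 and 5068 for E60, 9835, 10922 and 11656 for E70 and 14651, 15811 and 12876 for E95. Its E70 and E95 libraries were again the highest 6 and did not overlap. COX3 rose 3.40-fold from E33 to E95 (log2 1.77 ± 0.20 SE, limma adjusted p = 5.08e-06); as deposited the difference was 0.51 with an adjusted p of 0.382.

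The reading frames of ATP8 and ATP6 share 43 bases, so reads there could be counted for either gene, and the split between them is uncertain. The shared stretch is printed because both genes are among the 3 most abundant members. It lies at chrMT:9120-9162 on the plus strand of Sscrofa11.1 and opens with the start of the ATP6 frame.

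ATP8/ATP6 overlap: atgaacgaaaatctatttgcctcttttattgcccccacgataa

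ND4L and ND4 share 7 bases (chrMT:11359-11365), and ND5 and ND6 share 17 bases on opposite strands (chrMT:14739-14755), so these pairs carry the same uncertainty. Whether the libraries kept strand is not given in the sources used here, and neither is how reads that also match nuclear copies of mitochondrial sequence were counted.

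ND1 (ENSSSCG00000018065, chrMT:3922-4876), a membrane subunit of complex I, had scaled TPM of 923, 624 and 590.1 for E33, 1040.4, 834 and 1064 for E40, 921, 1613 and 1227 for E50, 918, 649.8 and 579 for E60, 3341, 4028 and 4161 for E70 and 4146, 5144 and 4475 for E95. The 6 libraries of E70 and E95 lay far above the other 12. As deposited, ND1 was 768 to 1092 TPM at E60 and 3229 to 4395 TPM at E70, also without overlap. ND1 rose 6.54-fold from E33 to E95 (log2 2.71 ± 0.23 SE, limma adjusted p = 2.47e-07; deposited 1.45, adjusted p = 0.0319).

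ND4L (ENSSSCG00000018086, chrMT:11069-11365), another membrane subunit of complex I, had scaled TPM of 566, 445 and 291 for E33, 543, 567 and 456 for E40, 288, 671 and 358 for E50, 537, 592 and 518 for E60, 1636, 2517 and 2443 for E70 and 2927, 3634 and 3267 for E95. It showed the same split of 6 libraries above 12. It rose 7.79-fold from E33 to E95, the largest difference among the 13 (log2 2.96 ± 0.29 SE, limma adjusted p = 1.03e-06; deposited 1.70, adjusted p = 0.0188).

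ND4 (ENSSSCG00000018087, chrMT:11359-12736), a proton-pumping subunit of complex I encoded directly beside ND4L, had scaled TPM of 5257, 3169 and 1472 for E33, 4892, 3087 and 3689 for E40, 2529, 6718 and 4087 for E50, 2275, 4449.9 and 3209.7 for E60, 2865, 4018 and 4584 for E70 and 5319.8, 6424 and 4829.8 for E95. E33 alone ran from 1472 to 5257, so that its libraries overlapped those of E95, and the highest value of all belonged to E50 replicate 2. Its difference from E33 to E95, 0.92 after scaling, was -0.34 as deposited and -0.44 with quantile normalization.

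**Figure D1:**
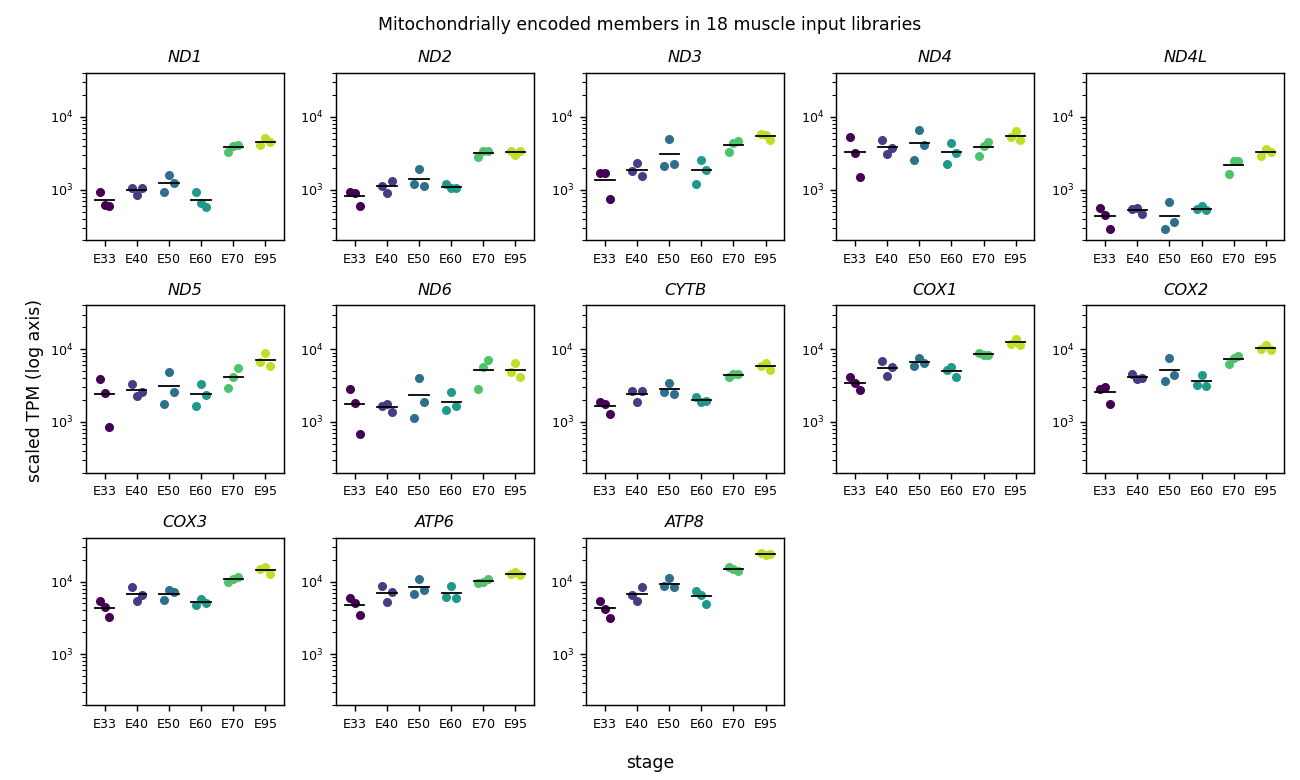
Scaled TPM (log axis) of the 13 mitochondrial members in each of 18 muscle input libraries by days after conception, 1 panel per gene, points for libraries and a line through stage means. ND1 and ND4L step up between E60 and E70, whereas the ND4 libraries of E33 and E95 overlap.

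Between consecutive stages most calls among the mitochondrial members fell at 2 steps, E33 to E40 and E60 to E70. From E33 to E40, 4 were called higher (CYTB, COX1, COX3 and ATP8, log2 0.53 to 0.70), where 10.1% of all genes were. None of the 4 was above 0 as deposited. No mitochondrial member was still called there when E33 replicate 3, E40 replicate 1 or E40 replicate 3 was left out, and 2 were called without E33 replicate 2.

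From E40 to E50, where 0.945% of all genes were called higher, and from E50 to E60, where 0.547% were, limma called 0 of the 39 members in either direction. Over all genes, 1855 and 1588 had an unadjusted p under 0.05 in these 2 comparisons.

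From E60 to E70, 6 of 13 mitochondrial members were called higher where 1.21% of all genes were: ND1 (log2 2.45), ND4L (1.97), ND2 (1.54), ATP8 (1.26), CYTB (1.15) and COX3 (1.05). The E70 libraries lay above those of E60 for 11 of the 13, and for 11.4% of all tested genes. As deposited, none of the 6 members was called, where only 6 of all 13334 tested genes were called higher. The differences of these members were 2.11, 1.64, 1.20, 0.93, 0.81 and 0.72, in the same order, with the lowest limma adjusted p, 0.344, at ND1.

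From E70 to E95, where 6.61% of all genes were called higher, ATP8 alone of the 13 was called (0.69 ± 0.21 SE, limma adjusted p = 0.0434). It was not called once any 1 of the 6 libraries was left out.

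The shares of some members in the mitochondrial sum also differed between the 12 libraries of E33 to E60 and the 6 of E70 and E95. These shares are each gene's part of the summed TPM of the 13, so the library scaling does not enter them, and they are given as a description. The share of ND1 was 1.35 to 2.83% (median 2.21%) in the 12 and 3.66 to 4.76% (median 4.37%) in the 6. The share of ND4L was 0.671 to 1.5% in the 12 and 2.21 to 3.09% in the 6.

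In the other direction, the share of ND4 was 5.89 to 12.7% in the 12 and 3.87 to 5.18% in the 6. The share of ATP6 was 13.8 to 17.9% in the 12 and 11 to 13% in the 6. For these 4 genes the 2 sets of libraries did not overlap; for the other 9 they did.

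A nuclear gene outside the set split the libraries at the same point: MYO3B, an unconventional myosin, was 0.0467 to 0.236 TPM as deposited in the 12 and 84.5 to 166 TPM in the 6. Whether the libraries of E70 and E95 were prepared and processed like the earlier ones is not given in the sources used here, and its part in the mitochondrial step from E60 to E70 was not tested.

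ND6 is the sole member read from the other strand of the mitochondrial genome. Its ratio to ND5, which ends against it, was 0.497 to 1.37 over the 18 libraries. The ratio averaged 1.22 ± 0.21 at E70 and 0.604 to 0.789 at the other 5 stages (n = 3 each). The E70 libraries, at 0.978 to 1.37, were the 3 highest.

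The 26 nuclear members ran at far lower levels, with a summed scaled TPM of 439.7, 481 and 478 for E33, 502, 469 and 485 for E40, 622, 520.4 and 624 for E50, 532, 586 and 563 for E60, 668, 632 and 706 for E70 and 1253, 1651 and 1055 for E95. The E95 libraries lay above all others by a wide margin, and E95 replicate 2 was the highest of the 18. As deposited, the mean sums were 798 ± 239 TPM for E33 and 898 ± 73.1 TPM for E95 (SD over 3 libraries), and the stages overlapped.

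All 26 were called higher at E95 than at E33 after scaling, with log2 differences of 0.55 to 2.77 and a median of 1.25, and the E95 libraries lay above those of E33 for each of them. Of all tested genes, 22.8% were called higher and 27.2% had E95 libraries above those of E33, and their median difference was 0.00. As deposited, none of the 26 was called, where 2.64% of all genes were called higher. Of the 26 differences, 15 were above 0 and 11 below, and their median was 0.06, where the median of all genes was -1.02. Once the 2 most abundant genes were dropped and TPM rescaled, 16 members were called, so the calls rested on the scaling. How many of all genes were called with that rescaling is not given here.

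At E95, replicate 2 held the highest value of the 3 libraries for 25 of the 26 and replicate 3 the lowest for 20. Leaving out any 1 library of the 2 stages kept 25 or 26 calls.

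**Figure D2:**
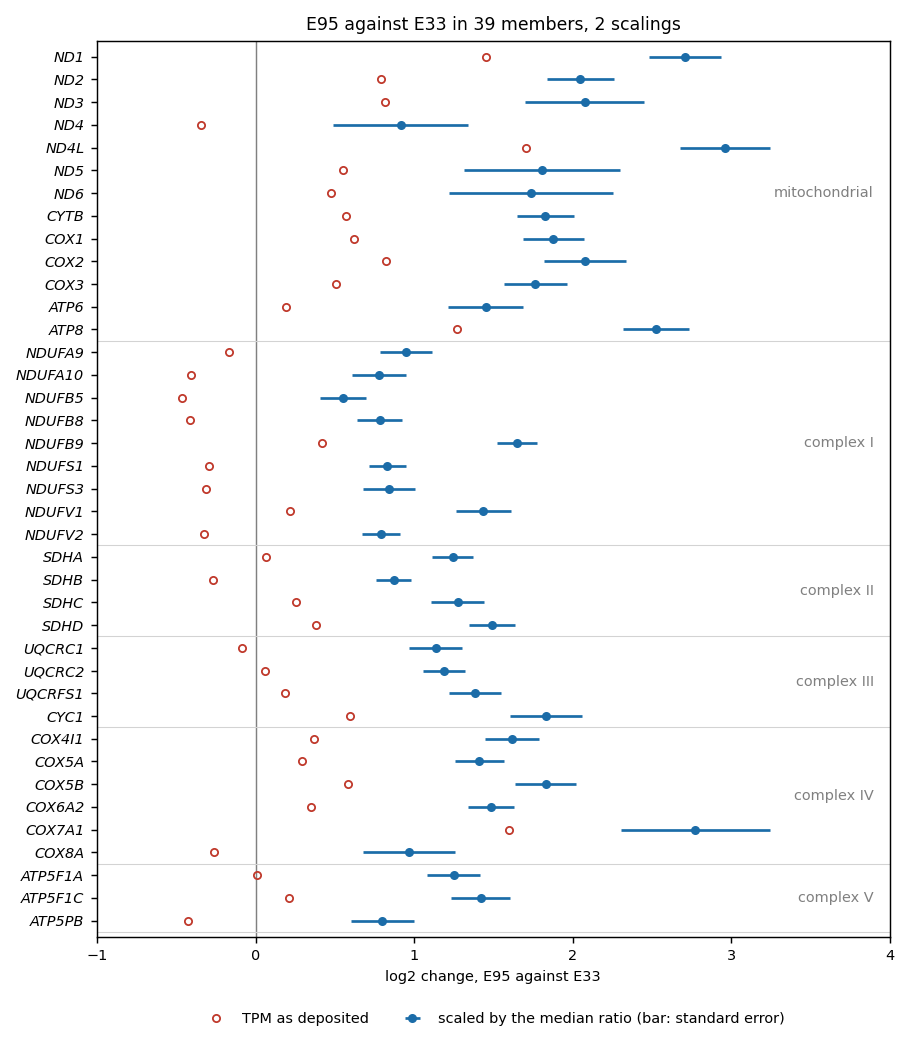
Log2 difference E95 against E33 for each of the 39 members, from scaled TPM with its standard error and from deposited TPM, grouped by complex. All scaled differences lie above 0, while the deposited differences lie on both sides of 0.

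In complex I, which takes electrons from NADH, all 9 nuclear members rose after scaling, with a median of 0.83. The largest rise was in NDUFB9 (ENSSSCG00000005976), an accessory subunit of its membrane arm, with scaled TPM of 21.9, 26.3 and 20.7 for E33, 21.9, 25.1 and 25.7 for E40, 37.3, 32.1 and 36.2 for E50, 30.1, 28.9 and 32.8 for E60, 41.3, 39.5 and 37.5 for E70 and 74.9, 87.1 and 61.7 for E95. The levels were 20.7 to 26.3 at E33 and E40, 28.9 to 41.3 from E50 to E70, and 61.7 to 87.1 at E95. The difference was 1.65 ± 0.12 SE (limma adjusted p = 8.05e-08), and 0.42 as deposited.

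The smallest was in NDUFB5 (ENSSSCG00000011764), also of the membrane arm, with 3.39, 3.49 and 2.71 for E33, 3.28, 2.74 and 3.50 for E40, 3.40, 3.99 and 3.15 for E50, 3.54, 2.35 and 3.68 for E60, 3.11, 4.09 and 3.61 for E70 and 4.67, 6.25 and 4.59 for E95. Its levels were at most 4.09 up to E70 and were 4.59 to 6.25 at E95 (0.55 ± 0.15 SE, limma adjusted p = 0.0066). As deposited the difference was -0.47, with the E95 libraries below all those of E33 and an adjusted p of 0.339. The core subunits of the peripheral arm had differences of 1.44 (NDUFV1, which binds NADH), 0.84 (NDUFS3), 0.83 (NDUFS1) and 0.79 (NDUFV2). The accessory subunits NDUFA9, NDUFB8 and NDUFA10 had differences of 0.95, 0.78 and 0.78.

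In complex II, succinate dehydrogenase, all 4 subunits rose, with a median of 1.26. SDHD (ENSSSCG00000015034), a membrane anchor, had scaled TPM of 3.62, 4.75 and 4.32 for E33, 6.09, 5.71 and 6.16 for E40, 5.47, 6.39 and 5.28 for E50, 5.91, 5.75 and 5.44 for E60, 6.98, 8.20 and 10.4 for E70 and 11.9, 17.6 and 12.1 for E95. It was 3.62 to 4.75 at E33 and 11.9 to 17.6 at E95 (1.49 ± 0.15 SE, limma adjusted p = 1.16e-06).

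SDHB (ENSSSCG00000020926), the iron-sulfur subunit, had 6.08, 7.04 and 6.14 for E33, 6.52, 5.77 and 5.88 for E40, 7.49, 8.14 and 8.24 for E50, 6.22, 7.81 and 8.72 for E60, 7.83, 6.24 and 7.65 for E70 and 13, 13.1 and 11.6 for E95. Its 3 E95 libraries were the highest, and E60 replicate 3 was the highest of the rest at 8.72 (0.87 ± 0.11 SE, limma adjusted p = 1.44e-05). SDHA, which holds the flavin and oxidises succinate, differed by 1.24, and SDHC, the other anchor, by 1.27.

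In complex III, which passes electrons from ubiquinol to cytochrome c, all 4 nuclear members rose, with a median of 1.29. CYC1 (ENSSSCG00000031918), cytochrome c1, had scaled TPM of 27.6, 26.5 and 35.6 for E33, 39.8, 29.7 and 24.4 for E40, 44.1, 29.8 and 28.3 for E50, 37.1, 58.8 and 34.9 for E60, 52.9, 46.9 and 55.9 for E70 and 113, 121 and 91.7 for E95. Its E95 libraries were the 3 highest, and E60 replicate 2, at 58.8, was the highest of the rest (1.83 ± 0.23 SE, limma adjusted p = 1.18e-05).

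UQCRC1 (ENSSSCG00000011356), a core scaffold subunit, had 21.5, 20.6 and 22.4 for E33, 19.2, 18.4 and 15.3 for E40, 17.3, 16.8 and 20.2 for E50, 13.6, 19.1 and 18.8 for E60, 21.9, 21.5 and 23 for E70 and 48.5, 63.2 and 37.1 for E95. It lay between 13.6 and 23 up to E70 and between 37.1 and 63.2 at E95 (1.14 ± 0.17 SE, limma adjusted p = 5.92e-05). The other core subunit UQCRC2 differed by 1.19 and UQCRFS1, the Rieske iron-sulfur protein, by 1.38.

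In complex IV, cytochrome c oxidase, all 6 members found rose, with a median of 1.55. COX7A1 (ENSSSCG00000037792), the subunit form found in heart and skeletal muscle, had scaled TPM of 2.21, 8.62 and 11.2 for E33, 12.4, 7.67 and 9.07 for E40, 4.17, 6.96 and 1.98 for E50, 16.6, 8.53 and 14.4 for E60, 15.6, 6.79 and 15.7 for E70 and 46.6, 58 and 41.9 for E95. The E95 libraries stood at 41.9 to 58, above the 1.98 to 16.6 of every other library, and the 3 libraries of E33 were widely spread. The difference was 2.77 ± 0.47 SE (limma adjusted p = 2.26e-04), the largest of the 26; as deposited it was 1.60 with an adjusted p of 0.0526, and E33 and E95 did not overlap.

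COX8A (ENSSSCG00000013046), a small subunit, had 31.5, 34.6 and 24.5 for E33, 33.2, 26.9 and 30.1 for E40, 34.2, 20.7 and 53.9 for E50, 31.7, 49.9 and 42.2 for E60, 44.2, 34.5 and 46.8 for E70 and 56.3, 81.8 and 45.4 for E95. Its levels lay between 20.7 and 56.3 in all but 1 library, E95 replicate 2 at 81.8, and the E50 and E95 libraries overlapped (0.97 ± 0.29 SE, limma adjusted p = 0.0141). COX5B, which lies on the matrix side, differed by 1.83, COX4I1, the largest nuclear subunit, by 1.62, COX6A2, the muscle form of its subunit, by 1.49 and COX5A by 1.41.

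In complex V, ATP synthase, all 3 members found rose. ATP5F1C (ENSSSCG00000034086), the gamma subunit that turns inside the catalytic head, had scaled TPM of 14.7, 14.5 and 15.8 for E33, 14.6, 11.5 and 13.4 for E40, 15.1, 15.3 and 14 for E50, 12.6, 16.7 and 11.6 for E60, 15.2, 16.8 and 18 for E70 and 43.9, 57 and 29 for E95. It stayed between 11.5 and 18 up to E70 and reached 29 to 57 at E95 (1.42 ± 0.19 SE, limma adjusted p = 2.33e-05).

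ATP5PB (ENSSSCG00000037772), part of the stalk that holds the head still, had 22, 28.6 and 30.2 for E33, 22.5, 29.1 and 27.4 for E40, 27.8, 27.4 and 24.2 for E50, 24.1, 28.6 and 29 for E60, 28.8, 28.5 and 32.8 for E70 and 36.2, 70.4 and 41.1 for E95. The E95 libraries lay above the 32.8 that was the highest of the earlier stages, but were spread from 36.2 to 70.4 (0.80 ± 0.20 SE, limma adjusted p = 0.0042). ATP5F1A, the alpha subunit of the head, differed by 1.25.

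The nuclear members moved mainly at the last step. From E33 to E40, 2 of 26 were called higher, COX6A2 (0.69 ± 0.15 SE, limma adjusted p = 0.0049) and SDHC (0.54 ± 0.17 SE, adjusted p = 0.0345), against 10.1% of all genes. Leaving out E33 replicate 3, E40 replicate 1 or E40 replicate 3 left 1 call. From E60 to E70 none of the 26 was called, with a median of 0.23.

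From E70 to E95, 22 of 26 were called higher, with a median of 0.75, against 6.61% of all genes; NDUFB5, NDUFV2, COX6A2 and COX8A were not. The largest differences were those of COX7A1 (1.94 ± 0.47 SE, limma adjusted p = 0.0136) and ATP5F1C (1.28 ± 0.19 SE, adjusted p = 4.57e-04). As deposited, none of the 22 was called, where 10 of all 13334 tested genes were called higher. Once the 2 most abundant genes had been dropped and TPM rescaled, 14 members were called. How many of all genes were called with that rescaling is not given here. Whether the steps of the mitochondrial and nuclear members differed in time was not tested.

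The summed mitochondrial TPM was 43.7 to 141 times the summed nuclear TPM within a library, a ratio that the scaling does not alter. Its log2 averaged 6.04, 6.54, 6.52, 6.18, 6.95 and 6.46 from E33 to E95. The E95 mean was 0.42 above that of E33, where the pooled SD was also 0.42, so the difference was about the size of the spread. The E70 mean was 0.77 above that of E60, and the E95 mean was 0.49 below that of E70. The E70 libraries (6.79 to 7.07) did not overlap those of E60 (6.02 to 6.36) or E95 (6.23 to 6.65).

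Cytochrome c oxidase has subunits that exist in a muscle form and a form of other tissues, and their log2 ratios within a library, with 1 added to each TPM, are also given. The ratio of COX6A2 to COX6A1 was -1.22, -1.28 and -1.68 for E33, -0.72, -0.58 and -0.36 for E40, 0.12, -0.62 and 0.10 for E50, -0.37, -0.09 and 0.07 for E60, 0.41, -0.29 and 0.48 for E70 and 0.25, 0.18 and 0.24 for E95. All 3 E33 libraries were below every other library. The Ensembl model under which the COX6A2 TPM was deposited was not checked. COX6A2 was 1.62 higher relative to COX6A1 at E95 than at E33 (n = 3 each, 2-sided exact permutation p = 0.10, the smallest this design allows). COX6A1 itself differed by -0.08 after scaling (adjusted p = 0.653) and by -1.27 as deposited (adjusted p = 0.0352).

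The ratio of COX7A1 to COX7A2 was -1.72, -0.48 and 0.36 for E33, -0.00, -0.39 and 0.05 for E40, -1.47, -0.80 and -0.97 for E50, 0.50, -0.30 and 0.87 for E60, 0.63, -0.19 and 0.41 for E70 and 1.46, 1.41 and 1.98 for E95. The E95 libraries were the 3 highest of the 18, and the E33 libraries ranged from -1.72 to 0.36. The E95 mean was 2.23 higher (exact permutation p = 0.10, the smallest possible). COX7A2 differed by 0.54 (adjusted p = 0.117).

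The ratio of COX4I2, the form found in lung, to COX4I1 was -3.90, -5.66 and -4.88 at E33 and -4.84, -5.85 and -5.16 at E95. The stages overlapped, and the difference of -0.47 had an exact permutation p of 0.5. COX4I2 differed by 0.88 (adjusted p = 0.0989), and without E33 replicate 1 the ratio differed by -0.01.

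The remaining nuclear subunits were counted in the same way, against the 22.8% of all tested genes called higher. In complex I, 18 of 19 further subunits were called higher at E95 than at E33, led by NDUFB11 (1.84), NDUFA11 (1.72) and NDUFAB1 (1.497). In complex III, UQCR11 (2.14), UQCRQ (1.80) and UQCR10 (1.57) were called, all 3 of those found. In complex IV, 3 of 8 were called: NDUFA4 (2.55), now counted as a cytochrome c oxidase subunit, COX7B (1.62) and COX7C (1.44).

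In complex V, 7 of 8 were called, led by ATP5MC1 (2.05), a subunit of the membrane ring, ATP5IF1 (1.93), the inhibitor of the enzyme, and ATP5ME (1.80). The medians of the 4 groups were 1.16, 1.80, 0.89 and 1.41. With deposited values, 1 of these 38 genes was called higher, NDUFA4 (1.38, limma adjusted p = 0.0498), and 1 lower, COX6A1. Of all 13334 tested genes, 352 were called higher and 6109 lower with those values.

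Assembly factors help to build the complexes. Of 21 tested, 6 were called higher and 1 lower at E95, with a median of 0.19, where 22.8% of all tested genes were called higher and 23.8% lower. The 6 of 21 is a share near that of all genes. As deposited, 0 of the 21 were called higher and 7 lower, where 352 of all 13334 tested genes were called higher and 6109 lower. COX17 (1.29) and COX15 (0.67), which serve copper and heme supply to cytochrome c oxidase, and NDUFAF1 (0.78), an assembly factor of complex I, were higher. COX10, another gene of heme synthesis for the oxidase, was lower (-0.43 ± 0.09 SE, limma adjusted p = 8.92e-04; deposited -1.38).

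Of 18 genes for mitochondrial DNA expression and biogenesis, 6 were called higher and 1 lower, and their median difference was 0.21. Of all tested genes, 22.8% were called higher and 23.8% lower. As deposited, 1 of the 18 was called higher and 5 lower, where 352 of all 13334 tested genes were called higher and 6109 lower. PPARGC1A, the coactivator PGC-1alpha that drives mitochondrial biogenesis, had scaled TPM of 0.458, 0.665 and 0.655 for E33, 1.61, 1.5 and 1.62 for E40, 4.38, 3.44 and 3.70 for E50, 3.56, 7.30 and 3.42 for E60, 2.29, 3.99 and 3.89 for E70 and 11.8, 11.09 and 18.3 for E95. It was under 1 in the E33 libraries and 11.09 to 18.3 at E95 (3.18 ± 0.23 SE, limma adjusted p = 5.97e-08), and it remained called as deposited (2.36, adjusted p = 4.55e-04).

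ESRRA, a nuclear receptor that works with it, differed by 1.67 and PPARGC1B, a related coactivator, by 1.33. PPRC1, a further relative, was lower by -0.82 (deposited -2.02). TFAM, which packages and starts transcription of mitochondrial DNA, was 3.17, 5.96 and 4.61 for E33 and 6.34, 3.17 and 5.11 for E95 and these stages overlapped.

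Of 19 genes of ATP transport and the citric acid cycle, 18 were called higher at E95, where 22.8% of all tested genes were, with a median of 1.16. SLC25A4, the ADP/ATP carrier of muscle, had scaled TPM of 16.3, 16.6 and 13.8 for E33, 35.6, 26.3 and 29.7 for E40, 57.5, 37.8 and 46.3 for E50, 54.9, 63.4 and 55.1 for E60, 110.5, 83.6 and 109 for E70 and 302, 426 and 295 for E95. Its E95 libraries exceeded all others and its E33 libraries were the 3 lowest (4.35 ± 0.18 SE, limma adjusted p = 2.46e-10). UCP3, an inner-membrane carrier of muscle (2.15), and CKMT2, the mitochondrial creatine kinase of muscle (2.01), followed; UCP3 was listed at 0 in 2 of the 3 E33 libraries. As deposited SLC25A4, UCP3 and CKMT2 were still called, at 3.13, 1.59 and 1.43. They were the only 3 of the 19 called higher as deposited, where 2.64% of all genes were. Of the 19, 1 was called lower, and the deposited median was 0.11.

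Markers of other cell types moved between the same stages. Summed over found genes and scaled, skeletal muscle markers were 3575 to 4183 TPM at E33 and 20330.4 to 29298 at E95, with 9 of 11 called higher and MYH3, the embryonic myosin, called lower. Endothelial markers were 16.2 to 20.9 and 104 to 133 (5 of 5 higher). Macrophage markers were 32.9 to 41.6 and 47.4 to 84.6 (4 of 5 higher). These lists were higher at E95 after scaling, like the members, where 22.8% of all tested genes were called higher and 23.8% lower. As deposited, the muscle sums were 4264 to 7894 TPM at E33 and 13267 to 18634 at E95, and the endothelial ones 19.3 to 40.4 and 77.2 to 90.8. The deposited macrophage sums went the other way and overlapped, at 40.5 to 78.4 and 32.5 to 55.2 TPM.

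Neuronal markers were 103 to 134 at E33 and 2.45 to 4.72 at E95 (all 3 that were tested of 5 found were lower), and cartilage markers 114 to 162 and 28.8 to 37.1 (4 of 5 lower). Erythroid markers were 87.4 to 235 and 15.6 to 30.6 (2 of 5 lower). Fibroblast markers were 2786 to 3640 and 5658 to 8716 (4 higher and 2 lower of 6), and the cardiac ones 49.4 to 65.9 and 231 to 330 (MYH6, the 1 tested of 3 found, was higher). Of the other two, NKX2-5 was at 0 in every E33 and E95 library, and RYR2 was 1.14 to 1.43 at E33 and 0.203 to 0.25 at E95. As deposited, the fibroblast sums overlapped, at 4096 to 6868 TPM for E33 and 3861 to 5688 for E95. The part of the marker shifts in the differences of the members was not tested.

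Peaks of m6A enrichment were deposited as 1 list for each stage and for each PK15 preparation, with no replicate lists, so no spread can be put on a peak count. A fold enrichment is the authors' own value for a peak. Every list held peaks in mitochondrial genes, though seldom in all 13. Of the 13, 12 had a peak in the E33 list, 8 in that of E40, 5 in E50, 9 in E60, 11 in E70 and 13 in E95. Among all genes of at least 1 TPM, the share with a peak was 33.5% for E33, 22.9% for E40, 32.6% for E50, 31.7% for E60, 35.6% for E70 and 37.5% for E95. In PK15, 6 of 13 had a peak in the polyA list and 13 in the rRNA-depleted list, against 37.8% and 23.8% of all 22427 genes. That base has no filter on level, unlike the one for muscle, so the PK15 and muscle shares cannot be set side by side.

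Peaks covered 54.8% of the 11358 bases of the 13 genes in the E33 list, 21.1% in E40, 13.5% in E50, 35.4% in E60, 52.7% in E70 and 53.7% in E95, with 18.3% in the PK15 polyA list and 82.6% in the rRNA-depleted list. E40 and E50 were the stages of least coverage; each held 1 of the 2 input libraries that stood apart, and their part in the low coverage was not tested. The E40 list was also the shortest, with 4928 peaks against 7058 to 8685 at the other stages.

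**Figure D3:**
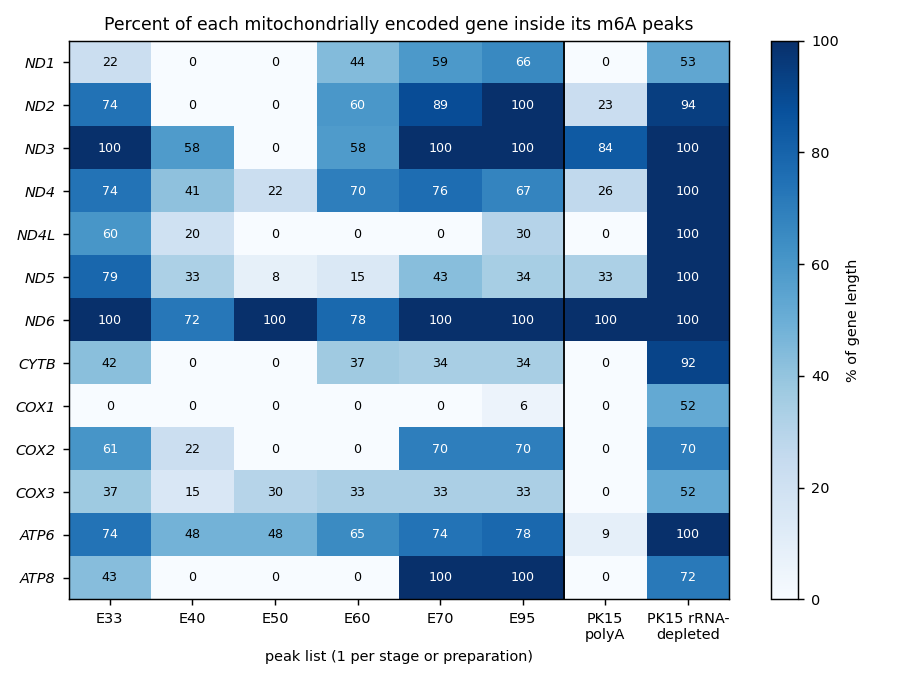
Percent of the bases of each mitochondrial member covered by m6A peaks in the 6 muscle lists and 2 PK15 lists. Cover is lowest at E40 and E50 and highest in the PK15 rRNA-depleted list, where all 13 genes have a peak.

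All 100 mitochondrial peaks lay inside the RefSeq gene of the same name. In muscle there were 75, of which 16 had a fold above the median of their own list. ATP6, COX3, ND4, ND5 and ND6 had a peak in all 6 muscle lists, ND3 in 5, ND1, ND2, CYTB and COX2 in 4, ND4L and ATP8 in 3, and COX1 in the E95 list alone. Between consecutive lists, 10 of 16 peaks of E33 overlapped 1 of E40 by at least 1 base, 6 of 10 of E40 1 of E50, 6 of 6 of E50 1 of E60, 13 of 13 of E60 1 of E70 and 14 of 15 of E70 1 of E95.

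In 5 of the genes, 7 stretches were covered by a peak in all 6 muscle lists. ND4, ND6, COX3 and ATP6 have 1 each printed as the positions where every stage was enriched; the others are in ND4 (chrMT:12556-12706), ND5 (chrMT:14337-14486) and ND6 (chrMT:15032-15120). They are given 5′ to 3′ on the strand of the gene, Sscrofa11.1, from the coding sequence of RefSeq, in lower case; capitals would mark GGAC, the core of the usual m6A motif, and none of the stretches holds it. They lie at chrMT:11598-11718 on the plus strand (ND4), chrMT:14739-14915 on the minus strand (ND6), chrMT:10119-10235 on the plus strand (COX3) and chrMT:9179-9445 on the plus strand (ATP6).

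ND4: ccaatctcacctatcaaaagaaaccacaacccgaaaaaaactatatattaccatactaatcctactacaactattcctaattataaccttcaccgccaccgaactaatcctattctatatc

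ND6: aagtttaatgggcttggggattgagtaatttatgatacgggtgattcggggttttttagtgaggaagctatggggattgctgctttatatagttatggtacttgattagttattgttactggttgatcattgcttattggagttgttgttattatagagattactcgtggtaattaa

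COX3: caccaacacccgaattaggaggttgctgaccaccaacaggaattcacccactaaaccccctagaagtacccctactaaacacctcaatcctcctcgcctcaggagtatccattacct

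ATP6: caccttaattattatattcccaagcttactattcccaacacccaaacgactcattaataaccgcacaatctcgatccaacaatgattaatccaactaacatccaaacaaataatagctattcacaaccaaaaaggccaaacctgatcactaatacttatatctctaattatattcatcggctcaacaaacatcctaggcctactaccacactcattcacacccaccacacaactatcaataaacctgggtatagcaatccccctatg

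GGAC, searched on the gene's strand, was in 0 of the 7 stretches, while 17.6 to 50.6% of windows of the same lengths in the 13 genes held it, depending on the length. All 23 GGAC of the 13 genes were placed: 11 lay in peaks of E33, 1 of E40, 3 of E50, 9 of E60, 11 of E70, 10 of E95, 3 in PK15 polyA and 18 in PK15 rRNA-depleted RNA. Per kilobase, GGAC stood at 1.77 inside and 2.34 outside the E33 peaks, 0.417 and 2.46 for E40, 1.95 and 2.04 for E50, 1.84 and 2.24 for E70, and 1.64 and 2.47 for E95. The E60 peaks differed the other way, at 2.24 inside and 1.91 outside. A match or its lack in a window says nothing of which base was methylated.

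The strongest muscle enrichments were those of ND6 at E33 (5.41-fold), ND2 at E33 (5.30-fold, chrMT:5087-5860) and at E95 (5.25-fold, chrMT:5087-6128) and ND3 at E33 (5.21-fold, chrMT:10653-10998). ND1 had its highest fold, 4.56, at E95 (chrMT:4250-4876).

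For the other 9 genes, and for ND6, the highest fold was in PK15 rRNA-depleted RNA. COX1, the catalytic subunit of the oxidase, had 7.11-fold there (chrMT:6838-7402) and 1.70-fold at E95 over 90 bases. ND4 had 5.92 (chrMT:11359-12736), ND6 5.68 (chrMT:14739-15266), ND5 5.29 (chrMT:12935-14755) and ND4L 4.27 (chrMT:11069-11365).

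In the same list ATP6 had 4.78 (chrMT:9120-9800), ATP8 4.42 (chrMT:9017-9162), CYTB, the cytochrome b of complex III, 4.41 (chrMT:15342-16391), COX2, the subunit that receives electrons from cytochrome c, 4.14 (chrMT:8203-8681) and COX3 3.18 (chrMT:10090-10351). Several of these peaks spanned the whole gene.

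The nuclear members seldom carried a peak in muscle. Of 26, 2 had a peak in the E33 list, 2 in E40, 4 in E50, 2 in E60, 4 in E70 and 5 in E95, or 7.69 to 19.2% of the 26, where 22.9 to 37.5% of all genes of at least 1 TPM had one. In PK15, 11 had a peak in the polyA list, which is 42.3% of the 26 against 37.8% of all 22427 genes, and 5 in the rRNA-depleted list, which is 19.2% against 23.8%. The PK15 base includes genes under 1 TPM and the muscle base does not, so the 2 sets of shares cannot be compared. Without a filter on level, 3047 to 4767 genes had a peak in a muscle list, and 8479 and 5333 in the PK15 lists. All 19 muscle peaks had a fold below the median of their list.

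In complex I, NDUFA10 had a peak in 5 muscle lists (all but E60), at 2.20- to 3.27-fold. Its highest, at E40 (chr15:139020916-139027144, minus strand), was spliced over 5 exon blocks, all coding. The block at chr15:139024207-139024286 (minus strand, Sscrofa11.1, RefSeq coding sequence) is shown because the peaks of all 5 lists covered it. It was also picked because it holds a GGAC, in capitals. Of stretches of its length, taken at the start of RefSeq coding exons of chromosome 15, 30.5% held one. The NDUFA10 blocks at chr15:139022761-139022791 and chr15:139025895-139025932 held none. Neither did the stretches common to the muscle peaks of NDUFB9, UQCRFS1 and COX6A2.

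NDUFA10: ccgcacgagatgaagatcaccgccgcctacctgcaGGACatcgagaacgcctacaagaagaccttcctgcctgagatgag

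NDUFB9, whose level rose most in complex I, had a peak at E40 and E50 (2.03-fold at E40, chr4:15108897-15110164, minus strand, in coding exons). UQCRFS1 had one at E70 and E95 (2.05- to 2.17-fold) and its highest in PK15 polyA (2.82-fold, chr6:39369156-39369544, minus strand), in coding sequence that RefSeq names LOC100522678.

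COX6A2 had a peak in 4 muscle lists, E50 to E95 (1.90- to 2.45-fold), and a 3.29-fold peak in PK15 polyA (chr3:17133543-17133873, plus strand). The muscle and PK15 peaks all lay in exons that RefSeq gives to LOC100626250 (chr3:17108623-17135108, plus strand). The Ensembl model of COX6A2, under which its TPM and peaks were deposited, was not checked. COX5A had 1 in muscle, at E95 (2.08-fold, chr7:58623138-58631056, plus strand), and ATP5PB 1, at E50 (1.92-fold, chr4:108896457-108898536, minus strand), both in coding exons.

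The muscle peak listed under COX7A1, in E33, E60, E70 and E95 (2.46- to 2.83-fold), did not lie in the RefSeq gene of that name. The Ensembl model of COX7A1, under which its TPM was deposited, was not checked. At E33 it was at chr6:45518182-45518420 on the minus strand, outside RefSeq COX7A1 (chr6:45519225-45520721, minus strand) and wholly across exons of CAPNS1 on the other strand (chr6:45511410-45518610). Without it the counts at E33, E60, E70 and E95 were 1, 1, 3 and 4. The PK15 rRNA-depleted list had the same peak outside the RefSeq gene (2.14-fold), and without it 4 nuclear members had a peak there. In PK15 polyA the COX7A1 peak was within the RefSeq gene, with a fold of 16.8 (chr6:45519952-45520721), though its deposited p-value was 1.9e-05.

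The other peaks of highest fold were all in PK15 polyA. They were those of NDUFV2 (14.6-fold, chr6:98852145-98852265, intron, with a deposited p-value of 1.9e-05), NDUFB8 (9.13-fold, chr14:111633082-111633584), COX8A (5.43-fold, chr2:8103109-8103285), SDHB (3.60-fold, chr6:75664067-75678111) and UQCRC1 (3.33-fold, chr13:31308267-31308671).

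SDHC (3.18-fold, chr4:89135552-89135731), NDUFV1 (2.43-fold, chr2:4962920-4964101) and COX5B (2.31-fold, chr3:56632031-56632090) followed. All 8 genes were without a peak in the 6 muscle lists. The comparison of PK15 with muscle was made on different cells and, for polyA, a different selection of RNA, so the part of each was not tested.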

How the data were processed

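Pig fetal longissimus dorsi RNA was extracted with Trizol, treated with DNaseI and depleted of ribosomal RNA, and m6A-enriched and input libraries were sequenced in pairs, per the labels' protocols. The submitters' processing notes name Trimmomatic, HISAT2 and the build Sscrofa11.1; the quantifier and the peak caller are not given in the sources used here. The authors deposited TPM per Ensembl gene for the input libraries and, per the file headers, peak lists with a fold enrichment (a ratio of enriched to input) and a p-value for each peak.

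From these, TPM of the 18 muscle libraries was divided by median-ratio factors over 11974 genes and tested, on a log2 scale after adding 1, in limma 3.58.1 (R 4.3.3; 1 mean per stage, trend, 12 residual degrees of freedom). Genes of mean TPM of at least 1 entered (13334), with Benjamini-Hochberg adjustment over all of them and a threshold of 0.05. Differences are on the log2(TPM + 1) scale, which understates those of low genes. Isoform ratios were tested by exact permutation. Peak positions were read against RefSeq genes of Sscrofa11.1. Python 3.11.15, pandas 2.3.3, scipy 1.17.1 and pysam 0.24.0 were used. The fit was tested on simulated data. No 2 libraries held identical values. Same-numbered libraries did not deviate together (correlations -0.12 to 0.10, and -0.13 to 0.12 for different numbers), so no pairing by number was seen. Whether same-numbered libraries shared a batch was not tested.

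The members, the gene lists and the scaling were chosen with earlier results of these data known. Named beyond the members were, in each pathway list (other subunits, assembly factors, biogenesis, ATP handling), the 3 largest called rises and falls from E33 to E95 and the genes of the 3 isoform ratios; values in every library were given for the mitochondrial sum, its 3 most abundant genes and the largest and smallest change of each complex. ND1, ND4L, ND4, MYO3B, TFAM, PPARGC1A, SLC25A4 and MYH3 were given after their values were seen. Alternatives were other scalings, pseudocounts, filters, a block on the library number, 2-stage fits and leaving out each library. PK15 expression tables were not used for tests.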

Additional observations from a re-analysis of the deposited data

How the results depend on the processing

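The scaling decided most calls. As deposited, of all 13334 tested genes, 352 were called higher for E95 against E33 and 28 for E40 against E33. For E70 against E60 there were 6, and for E95 against E70 there were 10. Counts over all genes with the other scalings are not given here. With TPM as deposited, the counts of called nuclear and mitochondrial members were 0 and 2 for E95 against E33, 0 and 0 for E40 against E33, 0 mitochondrial for E70 against E60, 0 and 0 for E95 against E70, and 1 and 2 in the F test. Leaving out in addition the 2 libraries high in ENSSSCG00000032599, chosen after seeing the data, gave 2 nuclear for E95 against E33, 0 and 0 for E40 against E33, 1 mitochondrial for E70 against E60, 1 and 0 for E95 against E70, and 5 and 7 in the F test. Dropping the 2 most abundant genes and rescaling TPM gave 16 nuclear calls for E95 against E33, 2 mitochondrial for E40 against E33, 14 and 0 for E95 against E70 and 15 nuclear in the F test. Also leaving out the 13 mitochondrial genes gave 1 and 0 for E40 against E33 and 13 and 0 for E95 against E70. Quantile normalization gave 4 and 1 for E40 against E33, 3 mitochondrial for E70 against E60, 0 for E95 against E70 and 7 in the F test.

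A pseudocount of 0.1 gave 1 mitochondrial call for E40 against E33, and no filter or a fit of the 2 stages alone gave 0. No filter gave 1 nuclear call for E50 against E40. The 1 mitochondrial call for E95 against E70 fell to 0 with a pseudocount of 0.1, no filter or a minimum of 5 TPM. Asking for a peak above the list's median fold left 0 nuclear and 8 mitochondrial members, and asking for overlap with RefSeq exons left 2 nuclear ones, where 15 of 26 had a RefSeq symbol.

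Leaving out 1 library at a time gave, for nuclear and mitochondrial members, 25 to 26 and 11 to 13 calls for E95 against E33, 1 to 2 and 0 to 5 for E40 against E33, 0 to 1 and 0 for E50 against E40, 0 and 5 to 6 for E70 against E60, 17 to 23 and 0 for E95 against E70, and 23 to 26 and 10 to 12 in the F test. E60 against E50 stayed at 0. The ratio differences ran from 1.48 to 1.70 for COX6A2 to COX6A1, 1.68 to 2.71 for COX7A1 to COX7A2, -0.90 to -0.01 for COX4I2 to COX4I1 and 0.13 to 0.69 for mitochondrial to nuclear sums. With the replicate number as a block, 26 and 12 members were called for E95 against E33 and 7 mitochondrial for E70 against E60, and no count of called members left its range of 1.5 times.

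Differences that changed sign for E95 against E33 as deposited, with or without the 2 libraries, were ND4 -0.34, NDUFA9 -0.17, NDUFA10 -0.41, NDUFB5 -0.47, NDUFB8 -0.41, NDUFS1 -0.29, NDUFS3 -0.31, NDUFV2 -0.33, SDHB -0.27, UQCRC1 -0.086, COX8A -0.26, ATP5PB -0.43, COX15 -0.31, NDUFAF1 -0.13, COX7A2 -0.63 and COX4I2 -0.11. For E40 against E33 as deposited they were CYTB -0.20, COX1 -0.026, COX3 -0.071 and ATP8 -0.053. Quantile normalization gave ND4 -0.44 and ATP6 -0.47 for E95 against E33 and ATP8 -0.22 for E95 against E70. COX7A2 was -0.068 when rescaled without the 2 most abundant genes, and COX6A1, at -0.08 in the report, ran from -0.19 without E95 replicate 2 to 0.045 without E95 replicate 3. Of the values of single genes under alternatives, 1374 kept direction and call, 267 lost the call, 6 gained one and 41 changed sign. The cause of these changes was not tested. With 3 libraries a stage and no read counts, the depth behind each TPM is unknown, and peak counts carry no replicate error.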

Other observations

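NDUFB10, a complex I subunit outside the 41 members, stood far above the rest of its complex, at 751 to 2326 scaled TPM (mean 1240.5) over the 18 libraries. The means of the other 27 nuclear complex I subunits found ran from 3.64 to 45.0, with a median of 13.5. In RefSeq, NDUFB10 (chr3:40003109-40005650, minus strand) meets the end of RPS2, a ribosomal protein gene (chr3:39996179-40003110, plus strand), and overlaps RPL3L (chr3:40004907-40016702, plus strand). Whether reads of these neighbours were counted for it was not tested.

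Peaks in the ribosomal and transfer RNA genes of the mitochondrial genome, which are no members, numbered 2 at E33, 0 at E40 and E50, 1 at E60, 2 at E70, 3 at E95, 0 in PK15 polyA and 5 in PK15 rRNA-depleted RNA.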
